A study of Homo sapiens with 29 samples.

Results

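The 46 genes described here encode the kinases, motors and chromosome-attachment proteins that human cells use to divide. They were chosen by name for their role in mitosis, and all 46 were found by symbol among the 23710 gene symbols of the expression table. They fall into 9 classes by role: 5 genes of the CDK1 engine, 5 other mitotic kinases, 5 spindle checkpoint genes, 4 genes of the anaphase machinery, 11 kinesins, 7 centromere and kinetochore genes, 3 genes of the chromosomal passenger complex, 5 genes of the spindle, cytokinesis and chromosome structure, and the transcription factor gene FOXM1. The study measured polyadenylated RNA in 27 libraries from H460 and H2122, which are established human lung cancer cell lines. Its design text names depletion of NR0B1 in 1 line and of NRF2 in 2 lines as the comparisons of interest.

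The H460 knockdown libraries came from cells with a short hairpin against GFP (shGFP, the control), NRF2, NR0B1 or SNW1, 72 h after knockdown. The H2122 libraries came from cells with a hairpin against GFP or NRF2, 24 h after knockdown. NRF2, encoded by NFE2L2, is the main activator of antioxidant genes, NR0B1 is an orphan nuclear receptor, and SNW1 is a transcription and splicing cofactor. In a separate experiment H460 cells received DMSO or 30 µM of BPK29 or BPK9 for 12 h. Each of these 9 groups has 3 libraries. The labels do not say whether the libraries of a group came from separate cultures, so a p-value here reflects the spread among the libraries of a group, and that spread may be technical.

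Entry into mitosis is driven by CDK1 bound to a B-type cyclin, which CDC25 phosphatases switch on and which Polo-like and Aurora kinases assist. Kinesins then build and shorten the spindle, kinetochores on the centromeres grip its microtubules, and the spindle checkpoint holds the anaphase-promoting complex back until every chromosome is attached. The genes of this programme are transcribed mainly in G2 and M phase, from promoters that share a cell cycle homology region (CHR) and CCAAT boxes, and FOXM1 is one of the factors that activate them.

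Whole reads could be worked out from the deposited values, and each knockdown library held 16709805 to 24613353 of them and each compound library 19077406 to 24824335. In the knockdown libraries the members had between 103 reads (CENPA) and 14342 reads (TOP2A), with a median of 1356. The hairpin targets were lower in their own groups: NFE2L2 was at 25.8 to 27.9 FPKM in H460 shNRF2 and 41.5 to 44.3 in shGFP, NR0B1 at 17.2 to 19.0 in shNR0B1 and 45.7 to 48.9 in shGFP, and SNW1 at 30.9 to 34.3 in shSNW1 and 49.3 to 52.3 in shGFP. NR0B1 was also low after NRF2 knockdown, at 8.82 to 9.35 FPKM in H460 and 0.92 to 0.99 in H2122. The epithelial keratin genes were high in both lines, whereas EPCAM was at 0.40 to 1.40 FPKM and CDH1 at 0.07 or less in H460. The summed level of 5 epithelial markers was 1972 to 2249 FPKM in H460 shGFP, 2058 to 2170.2 in shNRF2, 1198 to 1223 in shNR0B1 and 1884 to 1943 in shSNW1, and 2566 to 2580.1 in H2122 shGFP and 3884 to 4012 in shNRF2. Within it KRT18 was at 577 to 654 FPKM in H460 shGFP and 279.7 to 288 in shNRF2. KRT19 went the other way, from 900 to 1015 FPKM in H460 shGFP to 1313 to 1423 in shNRF2. KRT8 was at 494 to 579 and 456 to 467 FPKM in the same groups. The summed level of 6 immune markers was 28.4 to 38.5 FPKM over the H460 knockdown libraries, 46.2 to 47.5 in H2122 shGFP and 105 to 109 in H2122 shNRF2, most of it CD68 (45.0 to 46.2 and 94.6 to 98.4). In the same libraries CD79A was at 0.21 to 0.48 FPKM in shGFP and 4.48 to 4.76 in shNRF2 and LYZ at 0.31 to 0.42 and 4.84 to 5.41, with CD3E at 0 in both groups and PTPRC at 0.0061 or less. The summed level of 6 fibroblast and endothelial markers was 8.62 to 9.48 FPKM in H460 shGFP, 16.9 to 17.8 in shNRF2, 17.7 to 18.6 in shNR0B1 and 6.76 to 7.15 in shSNW1, and in H2122 it was 9.43 to 10.4 in shGFP and 13.9 to 14.5 in shNRF2. The part of these markers in the results below was not tested.

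All members were expressed in both control groups. In H460 shGFP, the mean level, in FPKM and so per length of gene, ran from 6.37 for KIFC1 to 258 for PTTG1, the securin that restrains the cohesin-cutting protease separase. The next highest were AURKA at 120.5, CCNB1 at 103 and TOP2A at 100.7. In H2122 shGFP the mean ran from 5.03 FPKM for KIFC1 to 127 for CCNB1, with PTTG1 next at 116. AURKA, the kinase that matures spindle poles, was at 122, 121 and 118 FPKM in the 3 H460 control libraries and at 54.0, 51.7 and 53.4 in the H2122 ones. CDC25B, a phosphatase that activates CDK1, was at 66.3, 65.3 and 70.7 FPKM in H460 and 28.5, 28.5 and 30.1 in H2122. For both genes every H460 control library lay above every H2122 one. This was not particular to them. PTTG1, ECT2 (means of 60.8 and 28.1 FPKM) and CDC25C (10.4 and 5.18) were also higher in H460 shGFP than in H2122 shGFP. CCNB1 and ANLN (59.6 and 65.9) were lower there.

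After NRF2 knockdown every member was lower than with the control hairpin, in both lines. All 46 members were called lower and none higher in H2122, where 38.5% of all 11710 tested genes were called lower and 48.8% higher. All 46 were likewise called lower in H460, where 39.0% of 11938 tested genes were called lower and 40.9% higher. A gene was called at an adjusted p under 0.05 in limma on log2(FPKM + 1), with Benjamini-Hochberg adjustment over all genes tested, and every log2 fold change given is on that scale. The median log2 fold change of the members was -1.44 in H2122 and -1.31 in H460, beside 0.09 and 0.01 over all tested genes. For each of the 46 genes, the 3 shNRF2 libraries all lay below the 3 shGFP libraries of the same line, as for 38.9% of all tested genes in H2122 and 39.1% in H460, while 49.5% and 40.8% of genes lay above. A smaller share of cells in G2 and M phase and less of each RNA per cell cannot be told apart in these bulk samples.

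**Figure D1:**
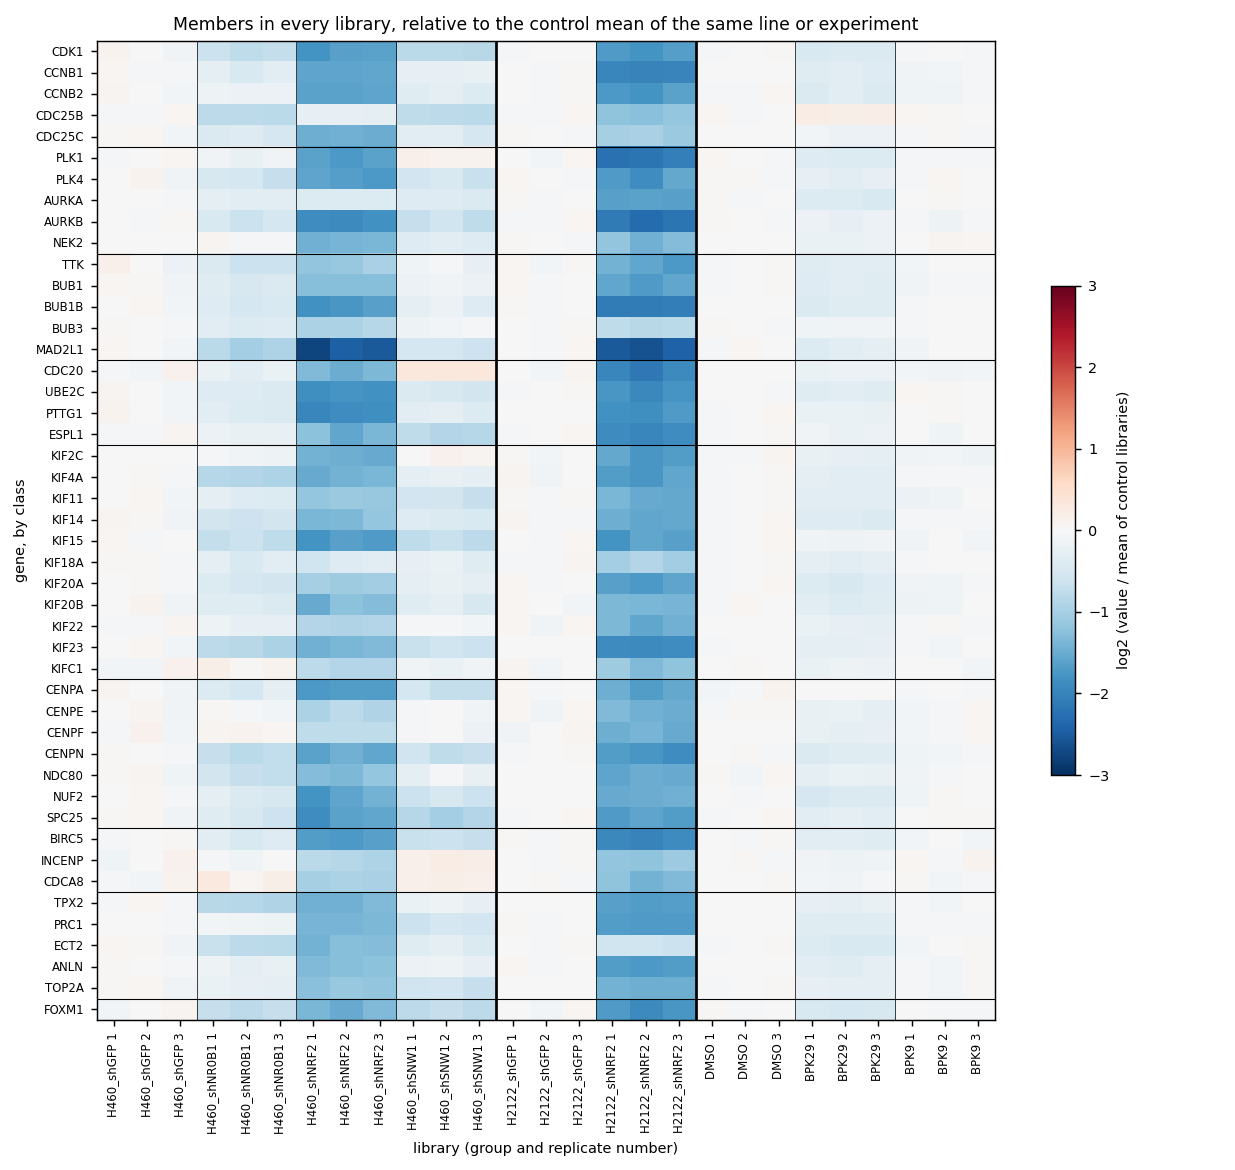
Level of the 46 genes (rows, grouped by role with horizontal lines) in each of the 27 libraries (columns), as log2 of the value over the mean of the 3 control libraries of the same line or experiment. The shNRF2 columns are blue for every gene in both lines, palest at CDC25B in H460. The shNR0B1, shSNW1 and BPK29 columns are paler at most genes, and the BPK9 columns are close to white. At CDC25B the shNR0B1 and shSNW1 columns lie further below control than the H460 shNRF2 ones. CDC20 in shSNW1 and CDC25B in BPK29 lie above control.

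CDK1, the kinase that triggers mitosis, had 86.2, 78.8 and 75.0 FPKM with the control hairpin in H460 and 23.1, 25.9 and 26.4 with shNRF2. In H2122 it was at 49.9, 52.0 and 52.0 FPKM in shGFP and 15.9, 14.9 and 16.3 in shNRF2. The groups did not overlap, and the log2 fold change was -1.63 ± 0.055 (SE, n = 3 per group) in H460 and -1.65 ± 0.037 in H2122, with limma adjusted p = 6.31e-12 and 2.05e-10. Its partner CCNB1, cyclin B1, was at 108, 101.1 and 102 FPKM in H460 shGFP and 34.7, 34.6 and 35.2 in shNRF2, and at 126, 124 and 130.1 and 32.6, 31.5 and 31.9 in the same groups of H2122. That left 33.7% of the control mean in H460 and 25.3% in H2122. CCNB2, the other B-type cyclin, changed by -1.55 and -1.66. Of the phosphatases, CDC25C changed by -1.26 in H460 and -0.80 in H2122. CDC25B had the smallest change of all members in H460, from 66.3, 65.3 and 70.7 FPKM to 57.1, 56.7 and 56.4, and a larger one in H2122, from 28.5, 28.5 and 30.1 to 12.5, 12.2 and 13.1. Its log2 fold change was -0.25 ± 0.032 in H460 and -1.14 ± 0.036 in H2122.

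To show where the motifs lie, windows of 5 genes, chosen with their motifs and values known, follow, as RefSeq gives them on GRCh38.p14, from 250 bases before to 30 bases after the start of the gene. The first 4 genes were lower by more than 1.3 on the log2 scale in both lines after NRF2 knockdown, and CDC25B is the member with the smallest change in H460 (-0.25, and -1.14 in H2122). They do not stand for all members: KIF18A and ECT2, with the smallest change of the kinesins and of all members in H2122, hold both motifs, and CCNB1 and AURKB, among the lowest, hold CCAAT but no CHR core. Each is printed 5′ to 3′ along the gene's own strand, with capitals for the CHR core TTTGAA and the CCAAT box, on either strand (ATTGG is CCAAT on the other strand).
CCNB2, chr15:59104896-59105175, plus strand
CCNB2: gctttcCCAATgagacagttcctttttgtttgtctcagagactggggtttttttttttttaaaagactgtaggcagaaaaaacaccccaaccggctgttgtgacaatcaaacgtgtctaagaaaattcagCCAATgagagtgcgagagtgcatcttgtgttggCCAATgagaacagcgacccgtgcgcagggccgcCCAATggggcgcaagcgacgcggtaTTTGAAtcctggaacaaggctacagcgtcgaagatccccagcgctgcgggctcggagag
PLK1, chr16:23678639-23678918, plus strand
PLK1: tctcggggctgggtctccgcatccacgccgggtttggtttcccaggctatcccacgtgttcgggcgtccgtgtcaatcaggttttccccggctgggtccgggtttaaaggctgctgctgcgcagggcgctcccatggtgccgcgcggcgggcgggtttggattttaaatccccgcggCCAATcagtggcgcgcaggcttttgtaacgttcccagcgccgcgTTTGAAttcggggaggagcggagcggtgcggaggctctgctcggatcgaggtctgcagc
KIF23, chr15:69414099-69414378, plus strand
KIF23: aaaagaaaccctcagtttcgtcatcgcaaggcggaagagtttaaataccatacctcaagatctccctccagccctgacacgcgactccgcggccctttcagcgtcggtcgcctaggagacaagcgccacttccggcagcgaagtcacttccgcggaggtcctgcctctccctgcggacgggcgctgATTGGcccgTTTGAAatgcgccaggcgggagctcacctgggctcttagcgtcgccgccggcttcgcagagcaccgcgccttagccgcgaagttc
MAD2L1, chr4:120066819-120067098, minus strand
MAD2L1: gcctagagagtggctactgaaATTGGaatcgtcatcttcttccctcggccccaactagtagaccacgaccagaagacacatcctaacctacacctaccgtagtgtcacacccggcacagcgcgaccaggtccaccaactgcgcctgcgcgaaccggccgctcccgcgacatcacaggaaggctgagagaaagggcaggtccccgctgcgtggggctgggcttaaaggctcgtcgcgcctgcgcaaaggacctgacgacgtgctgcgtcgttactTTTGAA
CDC25B, chr20:3786701-3786980, plus strand
CDC25B: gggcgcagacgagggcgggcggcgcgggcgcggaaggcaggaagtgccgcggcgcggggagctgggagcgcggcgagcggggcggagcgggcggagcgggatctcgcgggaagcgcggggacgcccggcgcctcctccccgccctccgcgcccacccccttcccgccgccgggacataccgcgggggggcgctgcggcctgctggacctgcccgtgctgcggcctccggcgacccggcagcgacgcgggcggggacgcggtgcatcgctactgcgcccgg
In CCNB2 and PLK1 the CHR core starts 29 bases before the start of the gene, with the nearest CCAAT box at 54 bases in CCNB2 and 73 in PLK1. In KIF23 the core starts 55 bases before the start and a CCAAT box on the other strand lies just ahead of it, at 64 bases. In MAD2L1 the core starts 25 bases after the start, and the only CCAAT box is 229 bases before it. The CDC25B window holds neither motif.

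RefSeq windows of 300 bases, from 250 before to 50 after the start, were at hand for 39 of the 46 members. The CHR core TTTGAA, on either strand, occurred in 28 of the 39 (71.8%) and in 15.4% of all 27305 windows of that length. CCAAT, on either strand, occurred in 29 of 39 (74.4%) and in 35.7% of all windows. Both motifs occurred together in 22 of 39 (56.4%) and in 6.08% of all windows. The antioxidant response element TGACNNNGC, the sequence NRF2 binds with a small MAF partner, occurred in 5 of 39 (12.8%) and in 13.6% of all windows. Those 5 were PTTG1, KIF23, NDC80, PRC1 and ANLN. None of the 3 motifs contains another, although their ends may share bases, and a match describes the letters only. The table had no entry for AURKA, TTK, BUB3, UBE2C, BIRC5, TPX2 and FOXM1. CDC25C, KIF2C and CENPE shared with CDC25B a window with neither the CHR core nor CCAAT, and all 3 were called lower after NRF2 knockdown in both lines.

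All 5 of the other mitotic kinases were called lower in both lines, and AURKA kept the largest share of its control level in H460. PLK1, which acts at spindle poles, kinetochores and the midzone, was at 69.0, 71.8 and 74.0 FPKM in H460 shGFP and 23.6, 21.7 and 23.4 in shNRF2, and at 56.0, 53.1 and 58.4 and 11.8, 12.3 and 13.5 in H2122. AURKB, the kinase of the chromosomal passenger complex, went from 59.7, 58.5 and 60.9 FPKM to 16.4, 15.8 and 17.0 in H460 and from 40.1, 40.0 and 43.0 to 9.51, 8.34 and 8.99 in H2122. PLK1 retained 32.0% and 22.4% of its control mean in H460 and H2122, and AURKB 27.5% and 21.8%. AURKA instead was at 91.2, 90.2 and 91.0 FPKM in H460 shNRF2, which is 75.4% of control, and at 17.3, 17.4 and 17.1 in H2122 shNRF2, which is 32.5%. PLK4, which starts centriole duplication, changed by -1.37 and -1.39, from 8.84, 9.43 and 8.22 FPKM to 2.93, 2.79 and 2.68 in H460 and from 8.91, 8.46 and 8.20 to 2.63, 2.33 and 2.94 in H2122. NEK2, a centrosome kinase, changed by -1.30 and -1.15.

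Among the checkpoint genes, MAD2L1 had the lowest log2 fold change of all members in both lines. It encodes MAD2, the protein that binds and holds CDC20. It was at 69.7, 66.6 and 63.0 FPKM in H460 shGFP and 9.80, 12.2 and 11.6 in shNRF2, and at 48.7, 47.4 and 50.6 and 8.55, 7.99 and 9.12 in H2122. These are 16.8% and 17.5% of the control means, and the log2 fold changes were -2.47 ± 0.069 and -2.39 ± 0.046. BUB3, a checkpoint scaffold that also serves outside mitosis, had the smallest change of the class in both lines. It went from 88.2, 86.1 and 82.7 FPKM to 44.2, 44.7 and 47.7 in H460 and from 77.2, 76.2 and 79.7 to 45.7, 43.6 and 44.7 in H2122, or 53.1% and 57.5% of control. The kinase genes TTK and BUB1 lay between, at -0.99 and -1.23 in H460 and -1.38 and -1.50 in H2122. TTK was at 16.4, 14.7 and 13.0 FPKM in H460 shGFP and 6.501, 6.65 and 7.47 in shNRF2, and BUB1 at 44.2, 43.5 and 39.1 and 17.4, 17.3 and 17.5. In H2122 TTK went from 13.6, 12.4 and 13.4 FPKM to 4.93, 4.46 and 3.96 and BUB1 from 26.3, 24.8 and 25.0 to 8.68, 7.78 and 8.67. No shNRF2 library of either gene reached the control range. BUB1B, which encodes BUBR1, changed by -1.65 and -1.97.

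The anaphase genes, whose products open the way for sister chromatids to part, had a median log2 fold change of -1.55 in H460 and -1.75 in H2122. PTTG1, the most abundant member in H460, fell from 276, 254 and 243 FPKM to 66.6, 71.3 and 72.2, and its log2 fold change of -1.86 ± 0.053 was the lowest of the class there. CDC20, an activator of the anaphase-promoting complex, was at 58.8, 57.5 and 66.1 FPKM in H460 shGFP and 24.3, 21.8 and 23.7 in shNRF2, and at 61.5, 58.3 and 65.7 and 15.9, 14.01 and 16.6 in H2122. UBE2C, the ubiquitin-conjugating enzyme of that complex, changed by -1.75 and -1.75. The separase gene ESPL1 changed by -1.22 and -1.66. The 16 listed subunits and partners of the complex itself had smaller medians: 11 were lower and 2 higher in H460 and 12 lower and 3 higher in H2122, with medians of -0.29 and -0.33.

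All 11 kinesin members were called lower after NRF2 knockdown in both lines, with medians of -1.18 in H460 and -1.37 in H2122. KIF11, the motor that pushes spindle poles apart, was at 34.1, 35.0 and 31.6 FPKM in H460 shGFP and 15.0, 15.5 and 15.4 in shNRF2. KIF20A, a cytokinesis motor, was at 44.0, 44.8 and 42.9 and 22, 21.0 and 21.4 FPKM, and the chromosome-arm motor KIF22 at 58.4, 56.9 and 63.0 and 32.2, 31.8 and 32.5. In H2122 the levels were 24.1, 22.7 and 24.1 and 9.08, 8.33 and 8.15 FPKM for KIF11, 31.0, 28.5 and 29.6 and 9.60, 8.95 and 9.94 for KIF20A, and 35.8, 32.2 and 35.8 and 13.7, 11.7 and 12.7 for KIF22. In none of these 3 genes did the groups overlap, and in H460 45.5%, 48.9% and 54.2% of the control mean remained, beside 36.0%, 31.9% and 36.6% in H2122. KIF15 was lowest of the class in H460, at -1.45 ± 0.05, and KIF23, a subunit of the centralspindlin complex of the spindle midzone, in H2122, at -1.81 ± 0.027. The smallest changes were those of KIF18A, which damps chromosome movement at microtubule plus ends. It went from 13.3, 13.3 and 12.4 FPKM to 8.55, 9.91 and 10.5 in H460 and from 5.86, 5.83 and 6.38 to 2.96, 3.26 and 2.93 in H2122, with log2 fold changes of -0.40 ± 0.067 and -0.79 ± 0.054.

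Kinesin genes on a list for interphase transport, not all of which need carry cargo, moved in both directions. Of 25 listed transport kinesin genes and light chains, 18 passed the level filter in each line, and 6 were called lower and 9 higher in H460 and 4 lower and 10 higher in H2122, a split near that of all tested genes (39.0% and 40.9% in H460, 38.5% and 48.8% in H2122). Their median log2 fold change was 0.11 in H460 and 0.18 in H2122. KIF13B had the largest change of the list in H2122, at 2.15 ± 0.044, with -0.14 ± 0.055 in H460. KIF26A had the largest in H460, at 1.20 ± 0.061. The promoter motifs also differed in number: TTTGAA occurred in 8 and CCAAT in 9 of the 11 mitotic kinesin windows, and in 1 and 3 of the 17 transport kinesin windows at hand. Of all windows 15.4% held TTTGAA and 35.7% CCAAT. With only the bases before the start searched, TTTGAA occurred in 5 of the 11 mitotic and 1 of the 17 transport kinesin windows.

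**Figure D2:**
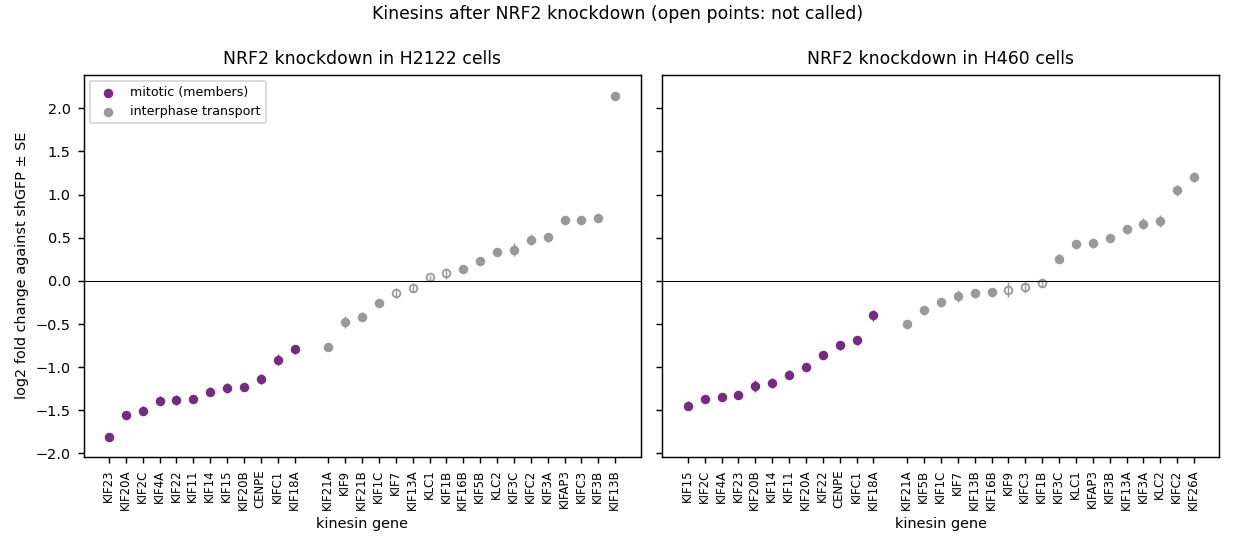
Log2 fold change of kinesin genes after NRF2 knockdown (vertical axis, error bars are SE) in H2122 (left) and H460 (right), with the mitotic members and CENPE in purple and the transport kinesins in grey, each sorted by value. Filled points passed limma's test and open points did not; the mitotic genes all lie below 0, and the transport kinesins lie on both sides of it.

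The kinetochore and centromere members had a median log2 fold change of -1.34 in H460 and -1.37 in H2122. CENPA, the histone variant that marks centromeres, went from 21.7, 20.6 and 19.2 FPKM to 6.16, 6.46 and 6.36 in H460 and from 11.9, 11.0 and 11.6 to 4.14, 3.63 and 3.97 in H2122. The inner kinetochore gene CENPN went from 12.6, 12.3 and 11.7 to 4.02, 4.50 and 4.12 FPKM in H460. NDC80, the microtubule-gripping subunit of the outer kinetochore, was at 18.1, 18.7 and 16.0 and 7.18, 6.84 and 7.81 FPKM in the same libraries. These left 30.9%, 34.6% and 41.4% of the control mean in H460. In H2122 CENPN went from 11.4, 11.9 and 12.0 FPKM to 3.71, 3.51 and 3.25 and NDC80 from 14.9, 15.2 and 15.1 to 5.04, 5.42 and 5.27, or 29.6% and 34.7% of control. NUF2 and SPC25, which join NDC80 in 1 complex, changed by -1.55 and -1.56 in H460 and by -1.40 and -1.47 in H2122. CENPF and the kinesin CENPE had the smallest changes of the class in H460, at -0.72 and -0.75. Of 27 further kinetochore and centromere genes, 26 were called lower in H460 (median -1.33), with CENPH at -1.93, and 21 lower and 2 higher in H2122 (median -0.97), with HJURP, the chaperone that loads CENPA, at -1.96.

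In the passenger complex, BIRC5 (survivin) had the lowest log2 fold change in both lines. It went from 77.2, 80.7 and 81.2 FPKM to 25.1, 24.0 and 25.6 in H460 and from 42.6, 39.9 and 43.1 to 10.9, 10.5 and 11.2 in H2122, leaving 31.3% and 26.0%. The scaffold INCENP and the borealin gene CDCA8 retained 54.9% and 50.9% in H460 and 44.9% and 40.3% in H2122. TOP2A, the topoisomerase that untangles sister DNA, was at 104, 104 and 94.1 FPKM in H460 shGFP and 42.0, 45.6 and 44.5 in shNRF2, and at 62.7, 61.5 and 61.9 and 23.2, 22.5 and 22.6 in H2122. ECT2, the activator of RHOA at the division site, had the smallest change of all members in H2122, from 28.1, 27.5 and 28.8 FPKM to 18.5, 18.5 and 17.9, and a larger one in H460, from 63.5, 62.5 and 56.4 to 22.7, 25.2 and 24.8. TPX2, PRC1 and ANLN, which act on the spindle, the midzone and the cleavage furrow, changed by -1.36, -1.35 and -1.24 in H460 and by -1.60, -1.66 and -1.65 in H2122. FOXM1 was at 29.8, 31.6 and 33.7 FPKM in H460 shGFP and 12.2, 11.2 and 12.7 in shNRF2, and at 29.9, 27.9 and 31.0 and 9.08, 7.88 and 8.81 in H2122. Its log2 fold change was -1.33 ± 0.054 in H460 and -1.68 ± 0.055 in H2122.

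Lists of neighbouring mitotic genes moved with the members to different degrees after NRF2 knockdown. Of all tested genes 39.0% were called lower and 40.9% higher in H460, and 38.5% and 48.8% in H2122. All 8 condensin genes were called lower in both lines, with medians of -1.15 in H460 and -1.16 in H2122, and NCAPH at -1.53 and -1.71. All 13 further mitotic kinases and regulators were called lower in both, with medians of -1.67 and -1.49, among them the phosphatase gene CDC25A at -2.04 and -2.20. Of 19 further spindle and cytokinesis genes, 18 were lower and 1 higher in each line, the higher one being NUMA1, a spindle-pole protein that also lies in the interphase nucleus, at 1.03 and 1.07. NUMA1 is named after its values were seen, as the only gene of that list called higher. Of 6 further checkpoint genes, 5 were lower and 1 higher in H460 and 4 lower and 2 higher in H2122, with TRIP13, the enzyme that remodels MAD2, at -1.91 and -2.24. Cohesin and its regulators were split, with 9 of 15 lower and 4 higher in each line. Of 12 DREAM and MuvB genes, which govern CHR promoters, 8 were lower and 2 higher in H460 and 8 lower and 4 higher in H2122, with MYBL2 lowest at -1.79 and -2.23.

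The size of the NRF2 response was compared between the lines with an interaction term. Of the 46 members, 28 fell further in H2122 and 4 fell further in H460, and 14 did not pass the test. The same term called 34.3% of all 12798 tested genes lower in H2122 and 37.4% higher, and the median over members was -0.24 beside 0.02 over all tested genes. The largest difference was that of AURKA, at -1.16 ± 0.037 (limma adjusted p = 2.87e-11), followed by CDC25B at -0.90 ± 0.053 (7.97e-09). CDC20, KIF20A and CENPF differed by -0.59, -0.55 and -0.54 in the same direction. ECT2 differed most in the other direction, at 0.70 ± 0.068 (1.03e-06), followed by CDC25C at 0.46, KIF15 at 0.21 and CENPA at 0.20. The calls for KIF15 and CENPA did not pass with a pseudocount of 0.1 or by voom, and that for CENPA was lost when any of 6 libraries was left out (H460 shGFP 1 or 2, H460 shNRF2 1, H2122 shGFP 2, H2122 shNRF2 1 or 3). The calls for NDC80 (-0.20) and CENPN (-0.17) were lost with no level filter, after rescaling and by voom, at adjusted p of 0.0563, 0.0961 and 0.1002 for NDC80 and 0.0592, 0.0911 and 0.0829 for CENPN, and when any of 8 libraries was left out. For NDC80 these were H460 shGFP 3, H460 shNRF2 1 or 3, any H2122 shGFP library and H2122 shNRF2 1 or 3, and for CENPN replicates 2 or 3 of each of the 4 groups. NDC80 was also lost with the replicate block (0.0556). BUB3, not called at 0.11, was called by voom and after rescaling. For CDK1 the difference was -0.018, with a 95% interval from -0.19 to 0.16, and for MAD2L1 0.086, from -0.12 to 0.29. Across the 46 genes the log2 fold changes of the 2 lines had Pearson's r of 0.66 and Spearman's rho of 0.68, given as a description, since the genes share libraries and processing and are not independent replicates. The hairpin target also differed between the lines. NFE2L2 was at 57.5 to 59.5 FPKM in H2122 shGFP and 25.8 to 27.5 in shNRF2. In H460 it was at 41.5 to 44.3 in shGFP and 25.8 to 27.9 in shNRF2. The lines were sampled at 24 h and 72 h, so line, time and depth of knockdown cannot be told apart.

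**Figure D3:**
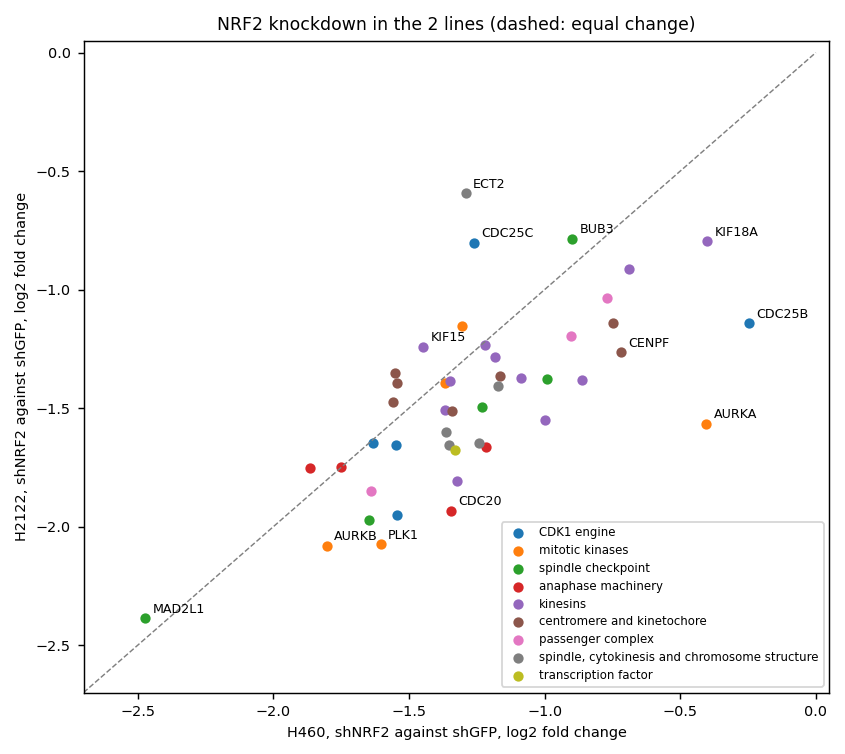
Log2 fold change of each of the 46 genes after NRF2 knockdown in H460 (horizontal axis) and in H2122 (vertical axis), coloured by class, with a dashed line where both are equal. All points lie below 0 on both axes; AURKA and CDC25B lie far below the line, and ECT2 and CDC25C above it.

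After NR0B1 knockdown in H460 most members were lower. Of the 46 members, 39 were called lower, 1 higher and 6 neither, beside 36.8% of all tested genes lower and 33.1% higher (25.5% and 44.4% with libraries rescaled to a common total, 30.7% and 41.3% by voom). The median was -0.39 over the members and -0.02 over all tested genes, and the median member stood at 73.7% to 78.7% of the control mean in the 3 shNR0B1 libraries. MAD2L1 again had the lowest value, at 38.0, 32.9 and 35.1 FPKM beside 69.7, 66.6 and 63.0 in shGFP (-0.89 ± 0.069, limma adjusted p = 8.48e-08). CDK1 was at 51.2, 47.5 and 48.5 FPKM (-0.69 ± 0.055) and FOXM1 at 19.6, 18.3 and 19.5 (-0.70 ± 0.054). For all 3 genes the shNR0B1 libraries lay below those of shGFP. KIF4A, KIF23, TPX2 and CDC25B were also among the lowest, at -0.84, -0.83, -0.85 and -0.78. PLK1 was at 66.5, 61.5 and 66.9 FPKM beside 69.0, 71.8 and 74.0, a log2 fold change of -0.14 ± 0.043 (adjusted p = 0.0103 in limma) that was not called after rescaling to a common total, by voom, or without shNR0B1 replicate 2. CDCA8 was the 1 member called higher, at 22.6, 19.2 and 20.6 FPKM beside 17.9, 17.5 and 19.7, with groups that overlapped (0.17 ± 0.054, adjusted p = 0.0124 in limma). That call was lost without shNR0B1 replicate 1 or shGFP replicate 2, at limma adjusted p of 0.0682 and 0.0568 for CDCA8. AURKB was at 43.5, 38.4 and 41.7 FPKM (-0.53 ± 0.05), CENPN at 7.52, 6.93 and 7.29 (-0.68 ± 0.053) and BUB1 at 32.9, 30.4 and 31.2 (-0.41 ± 0.046), each below its control libraries. KIF11 was at 28.1, 25.6 and 25.3 FPKM (-0.34 ± 0.051) and KIF20A at 33.1, 31.0 and 30.2 (-0.47 ± 0.038). NEK2, KIF2C, KIFC1, CENPE, CENPF and INCENP did not pass the test, at values from -0.092 for KIF2C to 0.10 for KIFC1.

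SNW1 knockdown in H460 gave 35 members lower, 4 higher and 7 neither, beside 36.4% of all tested genes lower and 30.8% higher (28% and 39.9% with libraries rescaled to a common total, 30.3% and 39.2% by voom). The median was -0.34 over the members and -0.03 over all tested genes. All 3 H460 knockdowns share the same 3 shGFP libraries. SPC25 was lowest, at 13.9, 12.6 and 13.8 FPKM beside 26.0, 26.1 and 23.7 in shGFP (-0.87 ± 0.076, limma adjusted p = 3.06e-07). CDK1 was at 45.4, 45.7 and 45.2 FPKM (-0.80 ± 0.055), and ESPL1 changed by -0.75. CDC20 was highest, at 75.8, 75.2 and 75.8 FPKM beside 58.8, 57.5 and 66.1 (0.31 ± 0.053, limma adjusted p = 0.000154), and all its shSNW1 libraries lay above those of shGFP. PLK1 was at 79.6, 77.2 and 77.0 FPKM beside 69.0, 71.8 and 74.0, a log2 fold change of 0.12 ± 0.043 (limma adjusted p = 0.0216). INCENP and CDCA8 were also called higher, at 0.18 and 0.16. Their partner BIRC5 was lower, at 50.2, 51.2 and 49.0 FPKM beside 77.2, 80.7 and 81.2 (-0.66 ± 0.039), as was AURKB, at 37.0, 39.3 and 35.1 (-0.67 ± 0.05). FOXM1 was at 18.3, 19.6 and 18.4 FPKM (-0.73 ± 0.054) and TOP2A at 67.0, 67.4 and 62.8 (-0.61 ± 0.047). Those 4 genes had every shSNW1 library below the control libraries. Without shGFP replicate 1 the members called higher fell from 4 to 1 (PLK1, INCENP and CDCA8 lost the call), and PLK1 then had limma adjusted p = 0.0871. The PLK1 call was also lost without shSNW1 replicate 1 (0.0757). Of the checkpoint genes, TTK and BUB3 did not pass, at -0.12 and -0.092 (without shGFP replicate 3 both were called, at -0.20 and -0.12), while MAD2L1 did, at 45.7, 45.9 and 43.2 FPKM (-0.55 ± 0.069). BUB3 was also called without shNRF2 replicate 3 (limma adjusted p = 0.0429) or shSNW1 replicate 3 (0.0406). BUB1 was called lower, but not after rescaling to a common total (limma adjusted p = 0.360), by voom (0.129) or without shGFP replicate 1 (0.0533). NDC80 was called at -0.17 ± 0.072, with groups that overlapped, and lost the call in 11 alternatives, among them voom (0.128), rescaling to a common total (0.342) and leaving out any of 6 libraries in turn (shGFP 1 or 2, shSNW1 1 or 3, shNR0B1 2 and shNRF2 1).

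Set against each other directly, NRF2 knockdown left nearly all members lower than either of the other hairpins did in H460. The targets were not at matched levels: NR0B1 was at 8.82 to 9.35 FPKM in shNRF2 and 17.2 to 19.0 in shNR0B1. NFE2L2 was at 52.7 to 55.6 FPKM in shNR0B1 and 56.5 to 58.3 in shSNW1, beside 41.5 to 44.3 in shGFP. The part of these levels was not tested. Against shNR0B1, 44 members were lower, 1 higher and 1 neither, beside 36.7% of all tested genes lower and 37.8% higher (45.9% and 29.8% by voom). Against shSNW1, 43 were lower, 1 higher and 2 neither, beside 39.1% and 39.6%. The medians over members were -0.86 and -0.89, beside 0.01 over all tested genes in both. PLK1 differed most among the kinases, at -1.47 ± 0.043 against shNR0B1 and -1.73 ± 0.043 against shSNW1, and MAD2L1 most of all members, at -1.58 ± 0.069 and -1.92 ± 0.069. CDC25B went the other way: it was at 57.1, 56.7 and 56.4 FPKM in shNRF2, 38.9, 38.9 and 38.7 in shNR0B1 and 39.5, 39.3 and 38.6 in shSNW1, so every shNRF2 library lay above the others (0.54 ± 0.032 and 0.52 ± 0.032). AURKA was at 91.2, 90.2 and 91.0 FPKM in shNRF2, 97.9, 95.2 and 95.1 in shNR0B1 and 91.9, 92.6 and 89.0 in shSNW1. Every shNRF2 library lay below every shNR0B1 library, and that difference was called, at -0.08 ± 0.028 (limma adjusted p = 0.0179), but not without shNR0B1 replicate 1 (0.0737) or shNRF2 replicate 2 (0.0560). The AURKA difference from shSNW1 was not called, at -0.0055 with a 95% interval from -0.065 to 0.054, whereas voom called it, at -0.13 (adjusted p = 0.0021). KIF18A did not pass the test in either comparison, at -0.074 (95% interval -0.22 to 0.071) against shNR0B1 and -0.14 (-0.29 to 0.001) against shSNW1.

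**Figure D4:**
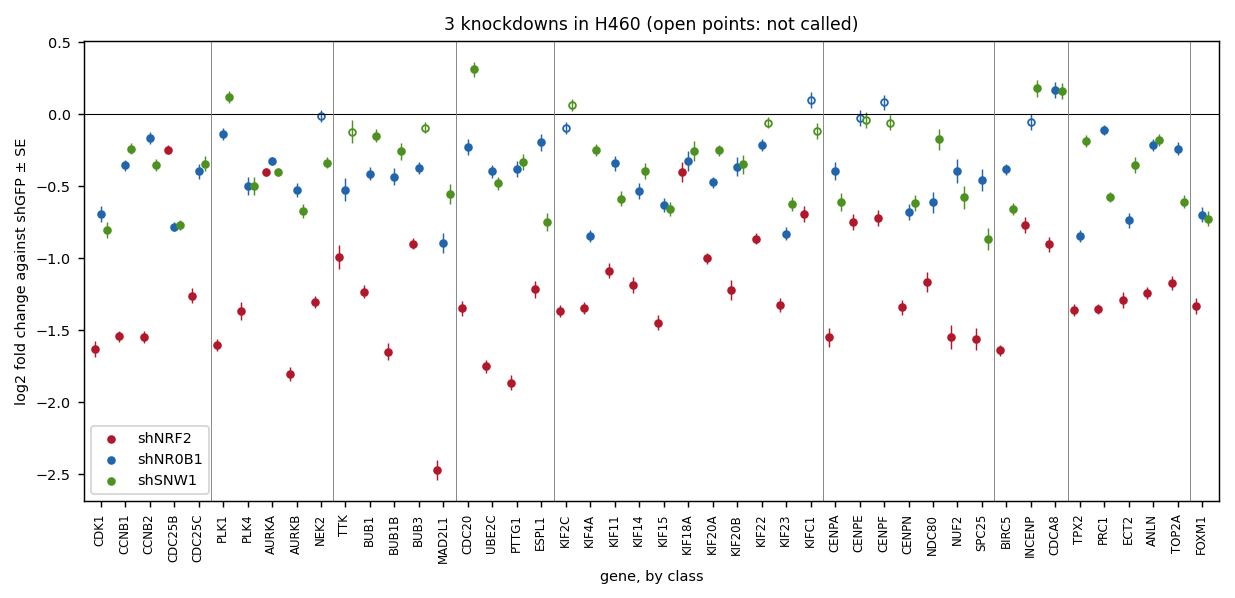
Log2 fold change against shGFP in H460 (vertical axis, error bars are SE) for each of the 46 genes, after knockdown of NRF2 (red), NR0B1 (blue) and SNW1 (green), with filled points for genes that passed limma's test and open points for those that did not. The red points lie lowest for nearly every gene; at CDC25B they lie highest, and at AURKA and KIF18A the 3 lie close together.

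NR0B1 and SNW1 knockdown were also set against each other. Of the 46 members, 18 were lower after NR0B1 knockdown, 13 higher and 15 neither, beside 33.1% of all tested genes lower and 34.7% higher, so the members were split much as all genes were. The median over members was -0.025, beside 0.0075 over all tested genes. All 5 checkpoint genes were lower with shNR0B1 than with shSNW1, from -0.40 for TTK to -0.18 for BUB1B. TTK was at 10.8, 9.39 and 9.46 FPKM in shNR0B1 and 13.4, 14.4 and 12.4 in shSNW1, and BUB3 at 67.9, 64.3 and 65.8 and 77.4, 80.8 and 82.8, with no overlap for either. TPX2, KIF4A, CDC20 and NDC80 differed in the same direction, at -0.66, -0.60, -0.54 and -0.44. TPX2 was lowest of all members, at 35.8, 35.3 and 33.9 FPKM in shNR0B1 and 55.7, 57.7 and 54.0 in shSNW1 (limma adjusted p = 1.11e-08). ESPL1 was highest, at 10.4, 10.1 and 10.2 and 7.0, 6.46 and 6.54 FPKM (0.55 ± 0.06), followed by PRC1, SPC25 and TOP2A at 0.46, 0.41 and 0.37. FOXM1 differed by 0.028 (95% interval -0.087 to 0.14) and CDC25B by -0.011 (-0.081 to 0.059). The AURKA call was lost by voom, with median-ratio rescaling, or without shNR0B1 replicate 1 or shSNW1 replicate 3. CCNB1 lost its call after rescaling to a common total, or without shNR0B1 replicate 2 or shSNW1 replicate 3. That for AURKB was lost without shNR0B1 replicate 1 or 3 or shSNW1 replicate 3. CDK1, not called, was called higher by voom, after rescaling to a common total, and with only the 2 groups fitted.

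The neighbouring lists had medians nearer 0 after the hairpins against NR0B1 and SNW1 than after the one against NRF2. Of 27 further kinetochore and centromere genes, 23 were lower and 0 higher after NR0B1 knockdown (median -0.49) and 24 lower and 0 higher after SNW1 knockdown (median -0.44), with SPC24, the partner of SPC25, at -1.34 after SNW1 knockdown. All 13 further mitotic kinases and regulators were lower after NR0B1 knockdown and 11 of 13 after SNW1 knockdown, with medians of -0.56 and -0.62. Transport kinesins were again split, with 6 of 18 lower and 9 higher after NR0B1 knockdown and 3 lower and 7 higher after SNW1 knockdown. Of all tested genes 36.8% were called lower and 33.1% higher after NR0B1 knockdown, and 36.4% and 30.8% after SNW1 knockdown. The kinesin light chain KLC2 had the largest change of that list in both, at 1.04 and 1.04.

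The 2 compounds were compared at the same dose and time, 30 µM for 12 h, which is 1 pair. Their columns are on another scale than the knockdown columns, so values are given as a percent of the DMSO mean. With BPK29, 43 members were lower than with DMSO, 1 was higher and 2 did not pass the test, beside 29.3% of all 11461 tested genes lower and 21.1% higher (19.2% and 33.6% with libraries rescaled to a common total, 21.6% and 34.2% by voom). The median log2 fold change was -0.27 over members and -0.02 over all tested genes, and the median member was at 80.3% to 81.4% of the DMSO mean in the 3 BPK29 libraries. FOXM1 was lowest, at 72.5, 68.9 and 71.9% of the DMSO mean, beside 103, 96.3 and 100.5% in the DMSO libraries themselves (-0.48 ± 0.032, limma adjusted p = 3.86e-06). NUF2 was at 71.1, 73.7 and 73.5%, CDK1 at 72.8, 73.9 and 73.8% and ECT2 at 75.6, 72.8 and 73.0%. For each of these 4 genes every BPK29 library lay below every DMSO library. AURKA was at 75.0, 75.2 and 73.1% (-0.42 ± 0.026), PLK1 at 76.4, 75.7 and 75.5% (-0.39 ± 0.029) and KIF20A at 75.1, 71.4 and 76.7%. MAD2L1 was at 75.9, 80.1 and 81.2% (-0.34 ± 0.042), AURKB at 88.2, 84.9 and 89.2% (-0.19 ± 0.036), BUB3 at 91.5, 92.5 and 92.5% (-0.12 ± 0.021) and KIF11 at 78.9, 79.0 and 78.5% (-0.34 ± 0.038). The remaining motors, kinetochore genes and kinases that were called lower lay between the values of FOXM1 and BUB3. The BUB3 call was lost after rescaling to a common total (-0.046, limma adjusted p = 0.0974).

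CDC25B was the only member called higher with BPK29, at 116, 114 and 114% of the DMSO mean beside 103, 97.5 and 99.2% in DMSO (0.20 ± 0.028, limma adjusted p = 0.000361). CENPA and CDCA8 did not pass, at 99.2, 98.6 and 99.3% and 94.9, 93.5 and 95.5%. The 95% interval of the log2 fold change ran from -0.10 to 0.078 for CENPA. By class, the median change with BPK29 was -0.36 in the CDK1 engine, -0.34 in the checkpoint, -0.27 in the kinesins, -0.26 in the kinetochore, -0.25 in the mitotic kinases, -0.20 in the anaphase machinery and -0.12 in the passenger complex. All 8 condensin genes and 15 of 19 further spindle genes were lower with BPK29 and none of them higher. Transport kinesins numbered 2 lower and 5 higher of 18, beside 29.3% of all tested genes lower and 21.1% higher. NR0B1 itself changed by -0.074 and NFE2L2 by 0.093 with BPK29.

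BPK9 gave no call in limma for any of the 46 members, and 0.00873% of all 11461 tested genes were called lower and 0% higher. At an unadjusted p under 0.05, 10 members passed, all of them lower, beside 15.1% of all tested genes in either direction (1725 genes). The share of all genes that were lower at that threshold was not worked out. By voom on the recovered reads none of the members and 238 genes in all were called. The members' log2 fold changes with BPK9 ran from -0.11 for KIF11 to 0.05 for INCENP, and the 95% intervals of all 46 lay between -0.20 and 0.13. KIF11 was at 88.3, 90.8 and 98.7% of the DMSO mean, CDK1 at 96.6, 101.4 and 98.1% and INCENP at 105, 98.1 and 108%, and these libraries overlapped those of DMSO. For 8 members every BPK9 library lay below every DMSO library, as for 10.3% of all tested genes, and for 1 (UBE2C) above, as for 9.13%, while 37 overlapped. The 8 included CCNB1, at 92.3, 94.6 and 98.3%, and CDC20, at 93.9, 92.9 and 95.2%. A p above the threshold does not show that BPK9 and DMSO act alike, and changes inside these intervals remain possible.

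The difference between BPK29 and BPK9 was tested directly. With BPK29, 41 members were lower than with BPK9, 1 was higher and 4 did not pass, beside 27.2% of all tested genes lower and 19.7% higher (19.2% and 30.1% with libraries rescaled to a common total, 21.5% and 31.4% by voom). The median over members was -0.25. FOXM1 differed by -0.44 ± 0.032 (limma adjusted p = 7.98e-06), AURKA by -0.44 ± 0.026 and CDK1 by -0.42 ± 0.027. CDC25B was again the member that was higher, by 0.16 ± 0.028. AURKB differed by -0.12 (limma adjusted p = 0.0225), a call not made by voom, after rescaling to a common total, or without BPK29 replicate 2, BPK9 replicate 1 or BPK9 replicate 3. The calls for BUB3 (-0.087) and CDC20 (-0.096) were also lost after rescaling, at limma adjusted p of 0.257 and 0.104. By voom they were lost as well, at 0.186 and 0.102. ESPL1, KIF15, CENPA and CDCA8 did not pass. For CENPA the difference was 0.0027, with a 95% interval from -0.087 to 0.093.

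**Figure D5:**
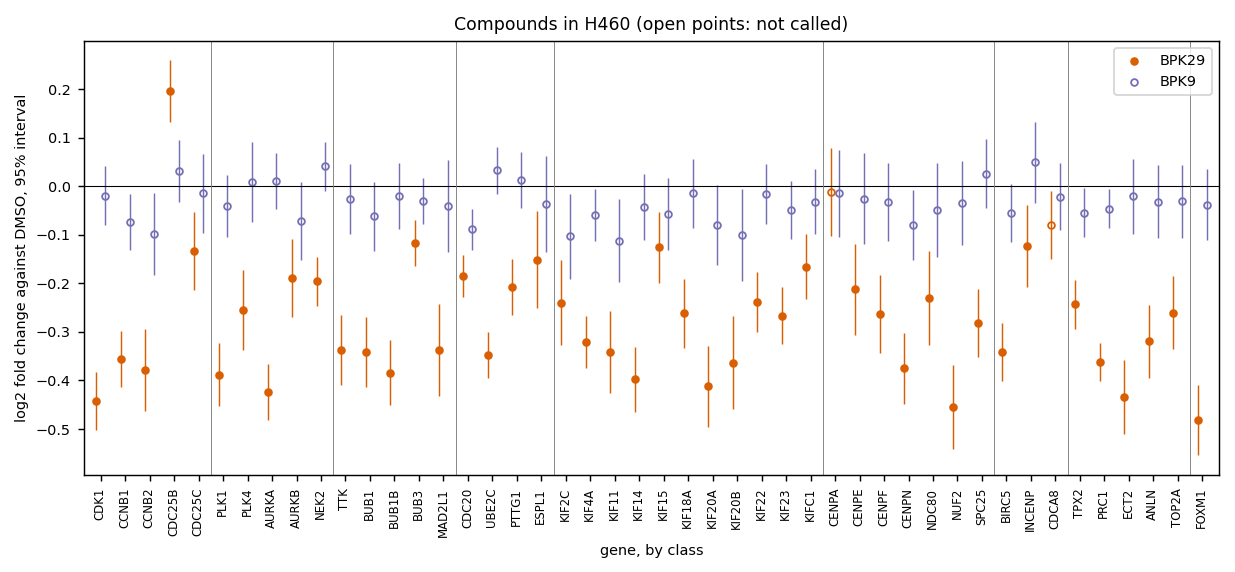
Log2 fold change against DMSO (vertical axis) with its 95% interval for each of the 46 genes in H460 treated with BPK29 (orange) or BPK9 (violet), with filled points for genes that passed limma's test. The orange points lie below 0 except at CDC25B, which lies above it, and are open at CENPA and CDCA8; all violet points are open and lie near 0.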

How the data were processed

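The authors deposited 1 table of values named FPKM for all 27 RNA libraries. Tools named, per the submitters' processing notes, include featureCounts, STAR and DESeq2, with the build hg19; the role and version of each, the gene annotation and the strand rule were not found in the labels. Low FPKM values rise in steps of 1 read, and these steps gave whole reads (within 0.02) for 100% of 17871 genes in the knockdown and 100% of 16211 in the compound columns. The deposited FPKM depth scaling follows median-ratio factors to within 1e-06% and 1.03%. The step method needs many low genes; in simulated data it failed when these were few. No interval here rests on the counts.

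A gene entered a test where 3 or more of the fitted libraries reached 1 FPKM, and it was tested with limma 3.58.1 (R 4.3.3) on log2(FPKM + 1) with a variance trend. This scale understates changes of low genes. All 46 members passed this filter in all 11 comparisons. A single fit held the 12 knockdown libraries of H460, another the 6 of H2122, and another the 9 compound libraries. The interaction of line and hairpin was fitted on the 12 shGFP and shNRF2 libraries. The fit was checked on simulated data. Alternatives were a pseudocount of 0.1, no level filter, 2 rescalings, a replicate block, voom on recovered reads, only the groups compared, and leaving out each library. The members, gene lists, tests and the rule for named genes were chosen with earlier results of these data known. By that rule any member could be named, 21 of them and the extremes of each comparison with every library, and up to 2 genes of each neighbouring list by size of change. Near copies of members (PTTG2, PTTG3P and KIF4B) reached at most 0.191 FPKM in the knockdown columns, so PTTG1 and KIF4A values may hold a few of their reads. 1 further marker gene of the lists is not reported here. Promoters are RefSeq's, on GRCh38.p14. The NR0B1 ChIP peaks, on hg19, were not analysed here near members.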

Additional observations from a re-analysis of the deposited data

Results flagged for a closer look

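The response to NRF2 knockdown differed between H2122 and H460, by the interaction term in limma, for 18 of the members whose library values were to be given. Over all 46 members 28 were called lower and 4 higher, beside 34.3% and 37.4% of all 12798 tested genes. Negative differences (H2122 minus H460, log2) were found for AURKA (-1.16), CDC25B (-0.90), CDC20 (-0.59), KIF20A (-0.55), KIF22 (-0.52), PLK1 (-0.47), CCNB1 (-0.41), TTK (-0.39), FOXM1 (-0.34), KIF11 (-0.29), AURKB (-0.28), BUB1 (-0.26), TOP2A (-0.24), BIRC5 (-0.21), NDC80 (-0.20) and CENPN (-0.17). Positive differences were found for ECT2 (0.70) and CENPA (0.20). The calls for NDC80, CENPN and CENPA were lost under several alternatives, voom among them. The lines were also sampled at different times and differed in depth of NFE2L2 knockdown.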

How the results depend on the processing

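The 46 lower calls after NRF2 knockdown were made under every alternative run in both lines. Members called higher after NR0B1 knockdown numbered 1, against 4 after rescaling to a common total and 3 by voom, and 0 to 2 with 1 library left out (0 without shNR0B1 replicate 1, 2 without shGFP replicate 3). Members called higher after SNW1 knockdown numbered 4, and 1 to 4 with 1 library left out. In the comparison of lines, 4 were called higher, against 2 with a pseudocount of 0.1 and 2 to 6 with 1 library left out (2 without H460 shGFP replicate 1 or shNRF2 replicate 1). Rescaling to a common total moved the median of all tested genes from 0.09 to 0.23 in H2122 and from -0.02 to 0.09 after NR0B1 knockdown, where the members' median went from -0.39 to -0.26 and 7 lower calls were lost (CCNB2, PLK1, CDC20, ESPL1, PRC1, ANLN and TOP2A). The members' median stayed below that of all genes. It also lost 5 lower calls with BPK29 and 4 with SNW1 knockdown. The cause was not tested. The share of members with TTTGAA was 71.8%, and 48.7% when only the bases before the start were searched (13.6% of all windows). Whether replicate numbers pair the libraries was not settled. No comparison had every same-number correlation over 0.1, although in H2122 and for BPK9 each library correlated best with its own number. With a replicate block 39 members were lower after NR0B1 knockdown, as without it, and 34 in place of 35 after SNW1 knockdown. Over single genes, 4002 of the recomputed values stayed on their side of the threshold, 76 lost the call and 12 gained it, and no called value changed direction.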
